A study of Mus musculus with 16 samples.

Results

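The cytosolic ribosomal protein genes were followed in mouse heart. They were taken as every symbol made of Rpl, Rps or Rplp and a digit, leaving out pseudogene symbols ending in -ps and the Rps6k kinases, with a mean of at least 100 normalized reads over the 16 libraries. The rule found 80 genes of the 24421 in the table, 48 with a large-subunit symbol and 32 with a small-subunit symbol. Of these, 73 encode the standard subunits of the ribosome. The others are 6 paralogs (Rpl3l, Rpl7l1, Rpl22l1, Rpl36al, Rps4l, Rps27l) and Rps19bp1, a nucleolar protein that is matched by its symbol but is no ribosome subunit. Hearts came from 4 groups of 4 animals aged about 3 months. The groups were wild-type (WT) hearts after sham surgery, hearts overexpressing the receptor tyrosine kinase ERBB2 (ERBB2-OE, here OE) after sham surgery, WT hearts after myocardial infarction (MI), and OE hearts after MI. Infarction followed lasting closure of the LAD, the left anterior descending coronary branch, and RNA was taken 2 weeks later. Sex and the promoter or cell type that drives ERBB2 are not given in the sources used here. PolyA RNA was sequenced.

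A ribosome holds one copy of nearly every ribosomal protein, and the small subunit decodes the mRNA while the large subunit joins amino acids. The mRNAs of these proteins usually begin with a pyrimidine-rich stretch, the TOP motif (terminal oligopyrimidine), through which mTORC1 signalling controls how strongly they are translated, so that protein output can change without a change in mRNA level. Striated muscle additionally makes Rpl3l, a paralog that takes the place of Rpl3 near the peptidyl transferase centre in part of its ribosomes.

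Between 11939093 and 17468914 reads were assigned to genes per library, and the ribosomal protein genes took 1.79% to 2.25% of them. Values are normalized reads, meaning reads divided by the size factor of the library. Differences were tested with limma on the log2 scale over all 14298 genes with enough reads, and a gene passed at a Benjamini-Hochberg adjusted p below 0.05. Erbb2 was higher in OE than in WT hearts by 2.68 (sham) and 2.50 (MI) on the log2 scale. Lung epithelial markers (10 genes) summed to 10311, 2050 and 6950 normalized reads in WT MI replicates 2, 3 and 4 and to 7076 and 2723 in OE MI replicates 2 and 3, and to at most 74.9 in the other 11 libraries. Thymocyte and T cell markers (15 genes) summed to 1558, 2572 and 1014 in OE MI replicates 1, 3 and 4, and to at most 197 in the other 13. No gene of either list was at 0 in every library of OE MI. For the infarcted hearts, calls that were lost without those libraries or with both marker sums as covariates are therefore given beside the values. This was not done for the fibroblast, macrophage, endothelial and cardiomyocyte marker counts or for the mitochondrial ribosomal protein genes in WT infarction. Leaving out the lung-bearing libraries leaves 1 WT MI heart, and leaving out the thymocyte-bearing ones leaves 1 OE MI heart, replicate 2, which is itself lung-bearing; a lone heart is then assumed to vary like the others. The sham hearts carry none of this signal at such levels.

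Start-site sequences are shown for a few of the genes whose values follow, because the TOP motif is the feature by which the family is best known. Each window is 30 bases centred on the RefSeq start in GRCm38.p6, 5′ to 3′ on the strand of the gene, and capitals mark a run of a C followed by at least 4 C or T that begins within 5 bases of the start.
Rps6, chr4:86857353-86857382, minus strand: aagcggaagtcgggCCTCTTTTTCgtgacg
Rplp2, chr7:141447636-141447665, plus strand: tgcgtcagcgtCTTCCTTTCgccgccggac
Rpl12, chr2:32961697-32961726, plus strand: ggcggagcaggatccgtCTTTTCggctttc
Rps2, chr17:24720048-24720077, plus strand: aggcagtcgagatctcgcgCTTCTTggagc
Rpl39, chrX:37085208-37085237, minus strand: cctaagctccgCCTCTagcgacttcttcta
Rpl3l, chr17:24727811-24727840, plus strand: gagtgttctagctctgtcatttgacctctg
Such a run was found in 28 of the 60 genes with an entry in the promoter table (46.7%), in 21.5% of 17491 protein-coding genes and in 17 of 69 mitochondrial ribosomal protein genes (24.6%). Rps6 and Rps2, which were lower in OE hearts, and Rpl12 and Rpl39, which were higher in OE sham hearts, all carry a run. The windows of Rpl3l and Rps13, which were lower, and of Rps12, Rpl41 and Rps19bp1, which were higher in OE sham hearts, carry none that begins within 5 bases of the start. Those of Rps12 and Rpl3l hold such a stretch further from the start, which was not counted. The counts therefore depend on where RefSeq places the start, and a gene without a run here may still have a TOP motif. Changed genes are thus found with and without a run, and whether a run goes with a change was not tested.

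Levels were compared per kilobase of exon. The median gene had 3288 normalized reads per kb, and the highest were Rps2 (10540 per kb), which lines the mRNA entry side of the small subunit, Rplp1 (10339 per kb) and Rplp0 (9518 per kb), parts of the acidic stalk that recruits elongation factors. Just inside the limit of 100 stood Rpl22l1 with a mean of 100.4 normalized reads and Rpl34 with 139.6. Just outside stood Rpl30 (31.98), Rpl37rt (20.2), Rps27 (13.6) and Rpl26 (13.2). Rpl39l was at 2.85, and Rpl10l and Rps27rt were at 0 in all 16 libraries. Ribosomal protein genes have many processed pseudogenes, and reads were 60 bases long. The median gene shared 33.7% of its 60-base stretches with another annotated gene, and 27 of the 80 shared over 50%, so that their counts depend on how such reads were assigned. Rpl3l and Rps19bp1 shared none.

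Rpl3l was by far the most changed of the genes. In WT sham hearts it had 4446, 5725, 4737 and 5136 normalized reads, and in OE sham hearts 333, 534, 639 and 753. All OE values lay below all WT values, and the mean was 8.87-fold lower (log2 fold change −3.20 ± 0.28 SE, limma adjusted p = 3.89e-07). After infarction Rpl3l had 4456, 3784, 3948 and 2650 normalized reads in WT hearts and 603, 1016, 366 and 814 in OE hearts. The groups again did not overlap, and the mean was 5.30-fold lower in OE hearts (−2.48 ± 0.28 SE, adjusted p = 1.34e-05). The decrease was −2.67 (adjusted p = 0.00156) without the 5 libraries with lung signal, −1.84 (0.0107) without the 3 with thymocyte signal and −1.74 (0.00261) with both marker sums as covariates. WT MI against WT sham gave −0.45 ± 0.28 for Rpl3l (adjusted p = 0.317), and the OE effect did not differ between sham and MI beyond error (difference 0.72 ± 0.39, adjusted p = 0.572). The authors' deposited table gives −3.15 and −2.41 for the OE comparisons. Rpl3l lies on chr17:24727820-24736143 (plus strand, mm10), and Rpl3 on chr15:80077791-80091868 (minus strand).

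Rpl3, the gene for the general protein at the same position of the large subunit, moved the other way. It had 3196, 2608, 3377 and 3697 normalized reads in WT sham hearts against 5743, 5638, 5476 and 4961 in OE sham hearts. Every OE sham heart was above every WT sham heart, and the mean was 1.69-fold higher (0.77 ± 0.12 SE on the log2 scale, adjusted p = 6.07e-05). After infarction WT hearts had 3560, 4262, 3635 and 5125 and OE hearts 5404, 4709, 5601 and 5109. These groups overlapped, since WT MI replicate 4 exceeded OE MI replicates 2 and 4, and the difference of 0.34 ± 0.12 had an adjusted p of 0.0357. That call was lost when any of WT MI replicates 1, 2 and 3 or OE MI replicates 1, 3 and 4 was left out (0.27 to 0.36, adjusted p 0.0508 to 0.111), without the thymocyte-bearing libraries (0.20, adjusted p = 0.624) and with the marker covariates (0.22, adjusted p = 0.458), and the difference was 0.56 (adjusted p = 0.0401) without the lung-bearing libraries. Rpl3 shares 65.8% of its 60-base stretches with 10 pseudogenes.

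Per kilobase of exon, Rpl3l made up 56.8% ± 5.44 (SD, n = 4) of the sum of Rpl3l and Rpl3 in WT sham hearts, 8.11% ± 2.81 in OE sham hearts, 43.1% ± 9.18 in WT MI hearts and 10.3% ± 4.37 in OE MI hearts. The lowest WT heart, WT MI replicate 4, was at 30.4% and the highest OE heart, OE MI replicate 2, at 15.4%. The ratio does not depend on how libraries are scaled. In reads as counted, the sum itself was lower in OE hearts. It was 4143 to 4507 normalized reads per kb in OE sham against 5148 to 5951 in WT sham. In MI it was 4121 to 4378 in OE against 5161 to 5523 in WT hearts, with no overlap in either pair. Rpl3 shares much of its sequence with pseudogenes, as given above, and Rpl3l shares none. The treatment of reads with several alignments is not given. The level of the share and the direction of the difference in the sum therefore depend on how such reads were counted.

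**Figure D1:**
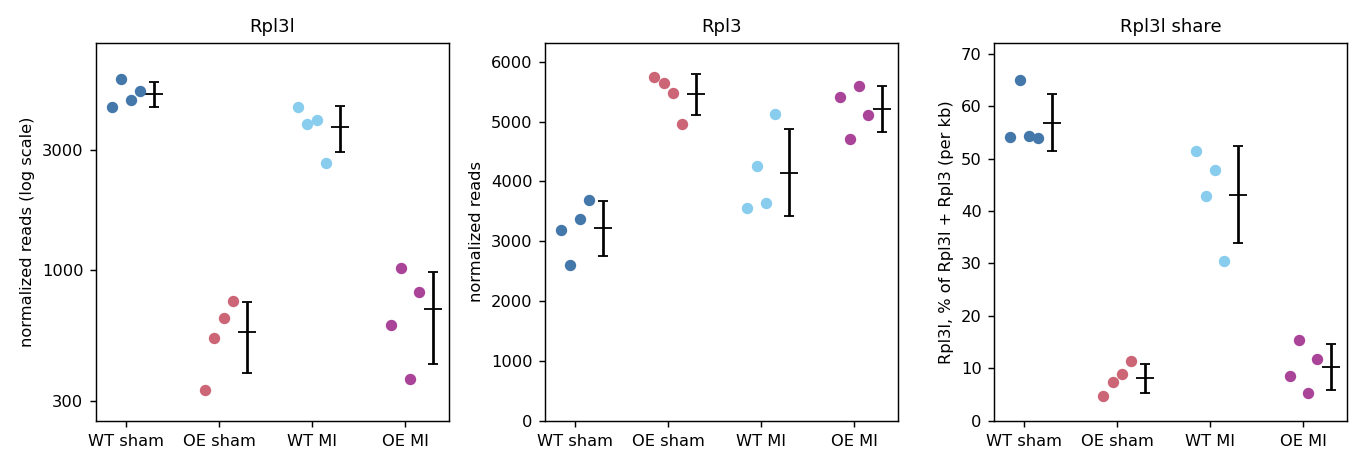
Normalized reads of Rpl3l (log scale) and Rpl3 (linear scale), and Rpl3l as a percentage of Rpl3l plus Rpl3 per kb of exon, with 1 point per heart and the mean ± SD of 4 hearts beside each group. OE hearts lie at 4.68% to 15.4% Rpl3l and WT hearts at 30.4% to 65.0%.

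Cardiomyocyte markers moved with Rpl3l. Their 12 genes summed to 1496469 to 1707215 normalized reads in WT sham hearts and 840638 to 972605 in OE sham hearts, and 10 of the 12 fell in sham (median −0.96, log2) and 9 in MI (median −0.72). Against that sum, Rpl3l stood at 2.88 to 3.40 reads per 1000 marker reads in sham WT hearts, 0.396 to 0.895 in sham OE hearts, 2.04 to 3.14 in infarcted WT hearts and 0.486 to 1.13 in infarcted OE hearts. Fibroblast markers rose as well, 9 of 12 genes in sham and 7 in MI, and 7 of 12 macrophage markers rose in sham (median 0.55) and 0 in MI. Of 10 endothelial markers 3 fell in sham and 1 in MI. Over all tested genes 24.9% rose and 24.5% fell in sham, and 15.5% rose and 16.3% fell in MI. In whole hearts fewer cells of a type and less RNA per cell cannot be told apart. The part of these marker changes in the Rpl3l difference beyond that ratio was not tested.

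The 250 bases before the Rpl3l start are shown because Rpl3l moved more than any other of the genes (GRCm38.p6, RefSeq, chr17:24727576-24727825, plus strand, capitals mark motif matches).
Rpl3l promoter: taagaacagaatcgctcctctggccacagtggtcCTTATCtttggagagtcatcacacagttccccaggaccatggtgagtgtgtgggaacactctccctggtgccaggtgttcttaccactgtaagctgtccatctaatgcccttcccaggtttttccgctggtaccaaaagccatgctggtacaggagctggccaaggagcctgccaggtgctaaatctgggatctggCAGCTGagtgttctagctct
Of 6 motifs searched on both strands, CAGCTG, an E-box of muscle bHLH factors, begins 20 bases before the start. GATAAG, on the opposite strand and known as the site of a family of cardiac zinc-finger factors, lies 216 bases before it. Those letters are in 13.8% and 7.32% of promoters of protein-coding genes of the same length. Among the 60 ribosomal protein genes with an entry, CAGCTG is in 3 (5%) and GATAAG in 9 (15%), so neither match is particular to Rpl3l. CATTCC (the TEAD element), CACGTG (the E-box of MYC) and the MEF2 and SRF sites were not found in the window.

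Among the other genes the OE effect in sham hearts was small and went both ways. Of the 80 genes, 6 passed upward and 13 downward at an adjusted p below 0.05 in OE sham against WT sham hearts (23.75%), where 49.3% of all 14298 tested genes passed, 24.9% upward and 24.5% downward. The groups did not overlap for 6 genes wholly higher and 12 wholly lower in OE sham hearts, where 24.3% of all tested genes did not in each direction. The median log2 fold change was −0.02 against 0.01 over all tested genes. A change of at least 1 on the log2 scale was reached by Rpl3l alone, as by 14.4% of all tested genes. Library-total scaling, which moved the median of all genes by 0.15 in sham and 0.13 in MI, gave 33 up and 3 down. Libraries with an RA number of 1 to 12 in their titles gave 15 up and 2 down (the meaning of the number is not given in the sources used here). That subset lacks WT sham replicates 3 and 4, OE sham replicate 4 and WT MI replicate 4, so its groups are smaller wherever it is used below. With edgeR the counts were 7 up and 7 down, so that the split between higher and lower genes differed with the scaling in sham hearts.

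The genes higher in OE sham hearts besides Rpl3 were Rps19bp1 (0.57 ± 0.13 SE), Rpl39 (0.37 ± 0.09), Rpl12 (0.24 ± 0.06), Rps12 (0.24 ± 0.09) and Rpl41 (0.23 ± 0.08). All 6 also passed upward under library totals, under RA numbers 1 to 12, with edgeR and with DESeq2. Rpl39, a very small protein that lines the peptide exit tunnel, had 1235, 1349, 1470 and 1557 normalized reads in WT sham hearts and 1866, 2037, 1815 and 1559 in OE sham hearts (adjusted p = 0.00223). The groups met at 1557 and 1559 without overlapping. Rpl12, at the base of the stalk, had 3095, 2908, 3241 and 3228 against 3665, 3773, 3791 and 3454 (adjusted p = 0.00537), also with no overlap. Rps12 lost its call without any of WT sham replicates 1 and 2 or OE sham replicates 2, 3 and 4 (0.19 to 0.23, adjusted p 0.0724 to 0.119), and Rpl41 without any of WT sham replicates 1 and 2 or OE sham replicates 2 and 3 (0.19 to 0.22, adjusted p 0.0528 to 0.0716).

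The genes lower in OE sham hearts besides Rpl3l included Rps2 and Rps13 of the small subunit. Rps2 had 12980, 14169, 14282 and 14150 normalized reads in WT sham hearts and 10724, 12124, 11828 and 9698 in OE sham hearts (−0.33 ± 0.07 SE, adjusted p = 0.00154). Rps13, a protein of the small-subunit platform, had 2749, 3134, 3054 and 3136 against 2318, 2450, 2519 and 2365 (−0.32 ± 0.06, adjusted p = 0.000311). Neither gene had a WT heart within the OE range. Rpl36 (−0.24 ± 0.07), Rplp2 (−0.21 ± 0.07), a stalk protein, and Rps6 (−0.16 ± 0.06), the substrate of the S6 kinases, passed as well. Without WT sham replicate 3, WT sham replicate 4, OE sham replicate 1 or OE sham replicate 4 the count of lower genes fell from 13 to 8, and Rplp2 (−0.19 to −0.17, adjusted p 0.0653 to 0.0788) and Rps6 then lost their calls. Rps6 lost its call without WT MI replicate 3 too (adjusted p 0.0503 to 0.124 over these libraries). Library totals gave −0.0047 for Rps6 (adjusted p = 0.955), −0.05 for Rplp2 (0.568) and −0.08 for Rpl36 (0.326), and RA numbers 1 to 12 gave −0.07 (0.476), −0.09 (0.460) and −0.13 (0.276), so that none of these 3 calls held under either. With edgeR Rps6 (adjusted p = 0.0982) and Rplp2 (0.0514) were also lost, and Rps6 was lost with TMM factors (0.0898), the replicate block (0.0579), no filter on low values (0.0614) and without the lung-bearing libraries (0.0507). Rps2 and Rps13 kept their calls with library totals at a smaller size (−0.17 and −0.17, adjusted p = 0.0303 and 0.0359), and under RA numbers 1 to 12 alone Rps2 gave −0.23 (adjusted p = 0.0521).

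**Figure D2:**
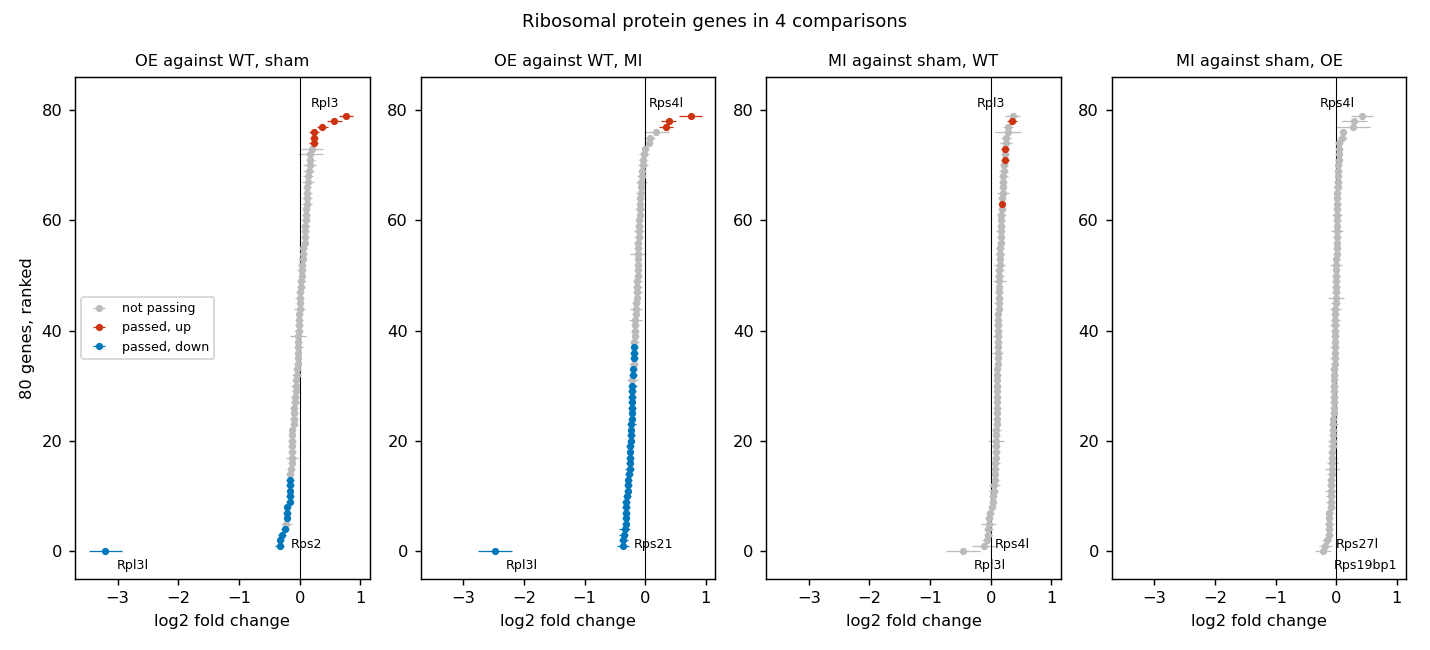
The 80 genes ranked by log2 fold change in each of 4 comparisons, with limma standard errors as bars and genes with an adjusted p below 0.05 in colour. Rpl3l stands at −3.20 and −2.48 in the OE comparisons, and all other genes lie between −0.37 and 0.77 there.

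After infarction many of the genes were lower in OE than in WT hearts. Of the 80, 3 passed upward and 36 downward (48.75%), where 31.9% of all tested genes passed, 15.5% upward and 16.3% downward. The median log2 fold change was −0.16 against 0.01 over all tested genes, and 73 of 80 values were negative. Rpl3l alone reached 1 on the log2 scale, as did 8.11% of all tested genes. OE MI hearts lay wholly below WT MI hearts for 41 of the 80 genes and wholly above for 1, where 13.6% and 13.0% of all tested genes did. All 13 genes lower in sham hearts were among the 36 (100% of the first list, 36.1% of the second). The sham and MI means share no library, but 1 estimate of spread from all 16 libraries enters both calls. The matching overlap over all tested genes is not given here, and their OE effects in sham and MI had Pearson's r = 0.86. The 36 were 19 small-subunit and 17 large-subunit genes. Library totals gave 3 up and 11 down, and scaling to the ribosomal protein genes themselves, which holds their median near 0 by construction, gave 6 and 6. The count fell to 1 up and 1 down without the lung-bearing libraries (median −0.08), to 15 down and 0 up without the thymocyte-bearing ones (median −0.26), and to 21 down and 0 up with the marker covariates (median −0.23).

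Rps2 had 12592, 14101, 13012 and 13360 normalized reads in WT MI hearts and 10404, 9780, 10692 and 10710 in OE MI hearts (−0.35 ± 0.07 SE, adjusted p = 0.00181). Rps13 had 2903, 2887, 2900 and 2998 against 2547, 2233, 2373 and 2205 (−0.32 ± 0.06, adjusted p = 0.000659). In both genes every OE MI heart was below every WT MI heart. The size of these differences was close to that in sham hearts, and the difference between the differences was −0.02 ± 0.10 for Rps2 and −0.0016 ± 0.0828 for Rps13, neither passing. Rps21, a small protein of the small subunit, was lower by −0.37 ± 0.10 (adjusted p = 0.00807), and Rps29 by −0.34 ± 0.09 (adjusted p = 0.0112). Without the lung-bearing libraries all 4 calls were lost, at −0.25 for Rps2 (adjusted p = 0.228), −0.29 for Rps13 (0.0978), −0.25 for Rps21 (0.342) and −0.31 for Rps29 (0.248). Without the thymocyte-bearing libraries Rps13 kept its call (−0.39, adjusted p = 0.0229), while Rps2 (−0.44, 0.0584), Rps21 (−0.49, 0.0798) and Rps29 (−0.47, 0.0865) did not. With the marker covariates Rps2 and Rps13 kept their calls and Rps21 (adjusted p = 0.0897) and Rps29 (0.0977) lost them. With library totals Rps21 gave −0.24 (adjusted p = 0.0550) and Rps29 −0.21 (0.0716).

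The 3 genes higher in OE MI hearts were Rps4l, Rps19bp1 and Rpl3. Rps4l, annotated by GENCODE as a transcribed processed pseudogene, had 198, 162, 121 and 174 normalized reads in WT MI hearts and 229, 292, 253 and 322 in OE MI hearts (0.75 ± 0.19 SE, adjusted p = 0.00578), with no overlap. In sham hearts it had 163, 174, 190 and 174 against 256, 206, 236 and 133 (0.21 ± 0.19, adjusted p = 0.378), and OE sham replicate 4 was the lowest of those 8. Its sham comparison passed without that library (0.40, adjusted p = 0.0427), and its MI call was lost without the lung-bearing libraries (0.46, adjusted p = 0.358), without the thymocyte-bearing ones (0.85, adjusted p = 0.124) and with the marker covariates (0.88, adjusted p = 0.0579). Rps19bp1 was at 0.39 ± 0.13 (adjusted p = 0.0271), and that call was lost without any of WT MI replicates 1, 2 and 3 or OE MI replicates 3 and 4 (0.31 to 0.39, adjusted p 0.0533 to 0.0980). It was lost as well at 0.11 without the thymocyte-bearing libraries (adjusted p = 0.782), at 0.21 with the marker covariates (0.552) and at 0.42 without the lung-bearing libraries (0.195). The count of higher genes fell from 3 to 1 without any of those 5 libraries.

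**Figure D3:**
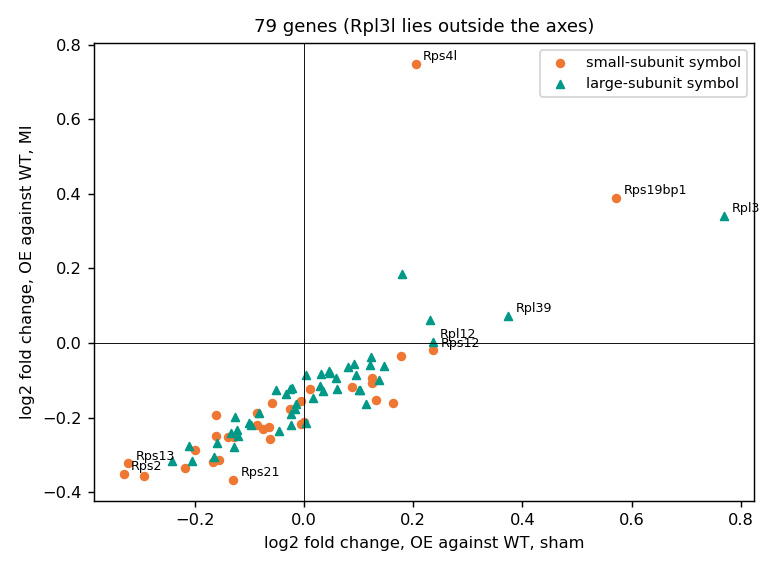
Log2 fold change of OE against WT in sham hearts (x axis) and in MI hearts (y axis) for 79 genes, circles for small-subunit and triangles for large-subunit symbols, with Rpl3l at −3.20 and −2.48 outside the axes. Most genes have a lower value in MI than in sham, and Rps4l stands off at 0.75 in MI.

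Across the 79 genes other than Rpl3l the sham and MI effects of OE had Pearson's r = 0.81 and Spearman's rho = 0.91, and across all 14298 tested genes 0.86 and 0.84. Genes are not independent replicates, and the values describe these 16 libraries.

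**Figure D4:**
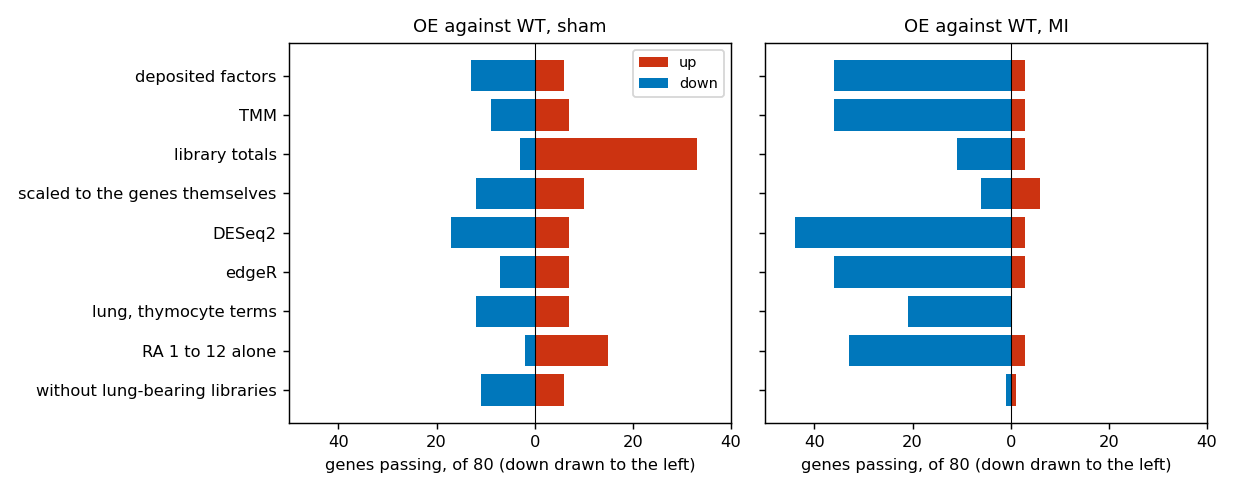
Number of the 80 genes that passed upward (right) and downward (left) in OE against WT hearts, sham on the left panel and MI on the right, under 9 ways of scaling, testing or choosing libraries. The sham split runs from 7 up and 17 down with DESeq2 to 33 up and 3 down with library totals, and the MI count of lower genes from 44 to 1.

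In WT hearts few of the genes passed in MI against sham. Upward it was 4 and downward 0 (5%), where 7.05% of all tested genes passed, 4.96% upward and 2.09% downward. The 4, none of which passed without the lung-bearing libraries or with the marker covariates, were Rps12 (0.35 ± 0.09 SE, adjusted p = 0.0306), Rpl10 (0.24 ± 0.07, 0.0417), Rps16 (0.23 ± 0.07, 0.0494) and Rpl13a (0.19 ± 0.05, 0.0490). The median was 0.12 against −0.03 over all tested genes, and 72 of the 80 values were positive. In the same comparison 9 of 12 fibroblast markers (median 0.89) and 7 of 12 macrophage markers (median 0.64) rose, and all 12 cardiomyocyte markers had negative values, 2 of them passing (median −0.21). WT MI replicates 2, 3 and 4 are lung-bearing, and these marker counts are not given here without them. The part of the marker changes in the ribosomal protein values was not tested. Rps12, a protein of the small-subunit beak, had 2540, 2483, 2983 and 2994 normalized reads in WT sham hearts and 3032, 3620, 3519 and 3852 in WT MI hearts. These groups did not overlap, as for 23 of the 80 genes, all of them higher in MI, where 7.78% of all tested genes had the MI group wholly above and 7.83% wholly below. This comparison and OE sham against WT sham share the 4 WT sham libraries.

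The WT infarct count moved strongly with the libraries. It was 0 without WT sham replicate 1 or 2 or WT MI replicate 2, 3 or 4, 1 without WT sham replicate 3 or 4, OE sham replicate 1, 2 or 3 or OE MI replicate 3, 8 without OE MI replicate 2, and 10 without WT MI replicate 1. Rpl10 lost its call without each of 11 libraries (0.20 to 0.26), which are the 4 WT sham libraries, OE sham replicates 1, 2 and 3, WT MI replicates 2, 3 and 4 and OE MI replicate 3. Rps12 lost its call without WT sham replicate 1 or 2 or WT MI replicate 2, 3 or 4 (0.30 to 0.35). It was 24 with library totals, 14 with DESeq2, 10 with edgeR, and 0 without the lung-bearing libraries (median 0.06).

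In OE hearts 0 of the 80 passed in MI against sham with limma, edgeR and DESeq2 alike (1 gene of all tested passed with limma, 0.00699%), and 1 of the 80 had an unadjusted p below 0.05 with limma. The median was −0.02. The test of whether the OE effect differed between sham and MI gave 0 of 80 with limma (0.0839% of all tested genes passed). Its median was −0.15 against 0.01 over all tested genes, and 77 of the 80 values were negative. Over the settings run the sign changed for some genes, as for Rpl22 (−0.14 to 0.06), Rpl7 (−0.17 to 0.05) and Rps13 (−0.07 to 0.15). It held for others, as for Rpl3 (−0.57 to −0.21), Rpl39 (−0.49 to −0.15) and Rps28 (−0.50 to −0.12). The OE values in MI enter this difference, and their counts moved with the lung-bearing and thymocyte-bearing libraries as given above.

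As a pool, the 80 genes took 1.88% ± 0.0869 (SD, n = 4) of the reads in sham WT hearts, 2.02% ± 0.0542 in sham OE hearts, 2.12% ± 0.112 in infarcted WT hearts and 2.05% ± 0.125 in infarcted OE hearts. In normalized reads the order was different. The sum was 281575 to 313658 in sham WT hearts, 269942 to 302892 in sham OE hearts, 305624 to 329443 in infarcted WT hearts and 267092 to 297677 in infarcted OE hearts. OE sham hearts were thus all above WT sham hearts as a share of reads and overlapped them in normalized reads, while every WT MI heart was above every OE MI heart in normalized reads and overlapped them as a share. Without the lung-bearing libraries the sums were 305624 in the 1 WT MI heart against 278773 to 297677 in 2 OE MI hearts, and without the thymocyte-bearing ones the 1 OE MI heart was at 267092.

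The balance between the subunits did not depend on scaling. Summed reads of large-subunit over small-subunit genes gave 1.60 to 1.63 in sham WT hearts, 1.71 to 1.73 in sham OE hearts, 1.60 to 1.62 in infarcted WT hearts and 1.65 to 1.71 in infarcted OE hearts. No OE heart lay within the WT range, and OE MI replicate 1 was the lowest of the OE hearts. Without Rpl3 and Rpl3l the ratio was 1.55 ± 0.0123 (SD, n = 4) in sham WT hearts, 1.66 ± 0.00809 in sham OE hearts, 1.55 ± 0.00963 in infarcted WT hearts and 1.64 ± 0.0278 in infarcted OE hearts. By gene, leaving out the paralogs and Rps19bp1, the median log2 fold change of OE in sham was −0.08 over 29 small-subunit genes and −0.0048 over 44 large-subunit genes, and in MI −0.22 and −0.13. Over the alternatives tried, the large-subunit median stayed above the small-subunit one by 0.06 to 0.09 in sham and 0.05 to 0.11 in MI. No test was made of this ratio, which is a sum over genes chosen by symbol.

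**Figure D5:**
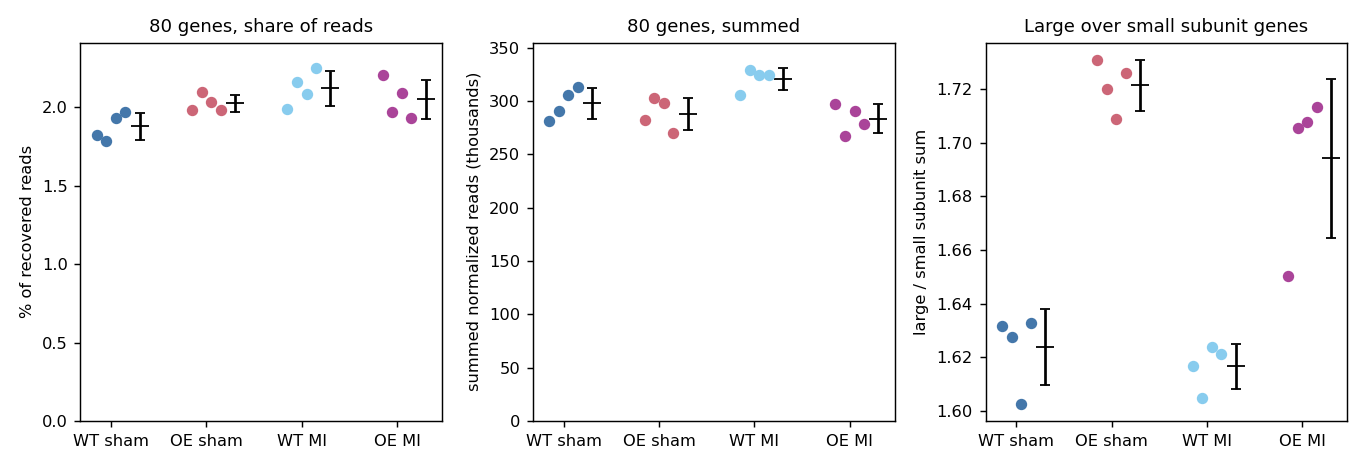
The 80 genes as a percentage of all reads, as a sum of normalized reads divided by 1000, and as the ratio of large-subunit to small-subunit sums (axis not from 0), with 1 point per heart and the mean ± SD of 4 hearts beside each group. The ratio is 1.60 to 1.63 in the 8 WT hearts and 1.65 to 1.73 in the 8 OE hearts.

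Within groups the genes moved together. After subtracting group means, the mean correlation between pairs of genes over the 16 libraries was 0.58 for the 80 genes and 0.65 for the 73 standard subunits, against 0.36 for 77 mitochondrial ribosomal protein genes and 0.0015 for all tested genes. The libraries' size factors enter every gene of a library, so these correlations share them. The mean deviation of the standard subunits ran from −0.09 in OE MI replicate 2 to 0.08 in WT sham replicate 4 on the log2 scale.

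Of the other paralogs, Rps4l has been described, and in OE sham hearts Rpl22l1, the counterpart of Rpl22, gave 0.18 ± 0.21 SE, Rps27l 0.16 ± 0.11, Rpl36al 0.15 ± 0.09 and Rpl7l1 0.04 ± 0.07, and none passed. With library totals Rps27l (0.32, adjusted p = 0.0128), Rpl36al (0.30, 0.00356) and Rpl7l1 (0.19, 0.0203) passed upward, and under RA numbers 1 to 12 Rps27l (0.37, 0.0231) and Rpl36al (0.29, 0.0154) did. Rps27l is induced by p53 and took 97.6% to 99.0% of the sum with Rps27 in WT sham hearts, 96.8% to 98.0% in OE sham. Rps27 shares 44.6% of its 60-base stretches with other genes and Rps27l 12.8%, and since the treatment of reads with several alignments is not given, these shares depend on how such reads were counted. Rps4l took 3.05% to 3.35% of its sum with Rps4x in sham WT hearts, 2.67% to 4.997% in sham OE hearts, 1.91% to 3.39% in infarcted WT hearts and 3.85% to 6.17% in infarcted OE hearts. Of the stalk proteins, Rplp0 (0.09 ± 0.07) and Rplp1 (0.14 ± 0.08) did not pass in sham, but both did with library totals (0.25, adjusted p = 0.00308, and 0.29, adjusted p = 0.00953), and Rplp1 did under RA numbers 1 to 12 (0.30, adjusted p = 0.0289). Rplp2 was lower in sham, with the limits given above, and in MI (−0.32 ± 0.07, adjusted p = 0.00300), where its call was lost without the lung-bearing libraries (−0.19, adjusted p = 0.322).

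Ribosomal proteins whose symbols fall outside the rule were measured beside them. Rpsa, Fau and Gnb2l1 (the scaffold Rack1), which belong to the small subunit, did not pass in either OE comparison (0.05 ± 0.08, 0.12 ± 0.06 and 0.00086 ± 0.0598 in sham), and Fau was higher in WT MI than in WT sham hearts (0.22 ± 0.06, adjusted p = 0.0363). With library totals Fau (0.27, adjusted p = 0.00203) and Rpsa (0.21, 0.0396) passed upward in OE sham hearts. The WT infarct call of Fau was lost without the lung-bearing libraries (0.17, adjusted p = 0.710), with the marker covariates (0.20, 0.467) and under RA numbers 1 to 12 (0.29, 0.0943).

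The mitochondrial ribosomal protein genes, which build the separate ribosome of the mitochondrion, were mostly lower in OE hearts. Of 77 tested, 1 passed upward and 59 downward in OE sham hearts (median −0.42), where 24.5% of all tested genes passed downward, and 0 and 60 in OE MI hearts (median −0.40), where 16.3% did. The 60 became 39 without the lung-bearing libraries, 33 without the thymocyte-bearing ones and 36 with the marker covariates, with medians of −0.47, −0.43 and −0.41. In WT MI against WT sham 7 fell (9.09%, against 2.09% of all tested genes). Their decline runs beside that of the cardiomyocyte markers given above, and the part of those was not tested.

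Elongation factors and other genes whose mRNAs are classed with the TOP mRNAs split in 2 directions. Of 17, 2 passed upward (11.8%) and 6 downward (35.3%) in OE sham, against 24.9% and 24.5% of all tested genes. In OE MI it was 2 (11.8%) and 5 (29.4%), against 15.5% and 16.3%. The MI counts were 2 and 5 without the lung-bearing libraries, 1 and 1 without the thymocyte-bearing ones and 2 and 3 with the marker covariates, and library totals gave 6 and 4 in sham. Eef1a1, the general carrier of aminoacyl-tRNA, had 19483, 17645, 19909 and 19781 normalized reads in WT sham hearts and 36357, 33571, 30140 and 33904 in OE sham hearts (0.80 ± 0.08 SE). Eef1a2, its form in adult muscle and neurons, had 33533, 32554, 28649 and 27150 against 18367, 20523, 22554 and 18536 (−0.61 ± 0.10). The groups did not overlap in either gene. Eef1a2 made up 57.9% to 64.8% of the reads of the pair in sham WT hearts and 33.6% to 42.8% in sham OE hearts. In infarcted hearts it made up 45.2% to 53.5% in WT and 31.2% to 37.7% in OE. Per kb of exon the sham shares were 54.2% to 61.4% in WT and 30.3% to 39.2% in OE hearts. Eef1a1 shares 47.0% of its stretches of read length with other genes and Eef1a2 shares none. The level of these shares therefore depends on how reads with several alignments were counted, which is not given. Pabpc1, the polyA-binding protein, rose by 0.87 ± 0.07 in sham and 0.53 ± 0.07 in MI, and its MI call held without either set of doubted libraries and with the marker covariates (0.48 to 0.62). Eef1d fell by 0.56 and Naca by 0.50 in sham.

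Lists of genes that make ribosomes gave different counts in OE sham hearts. Of 50 pre-ribosome assembly factors tested, 14 passed upward (28%, against 24.9% of all tested genes) and 2 downward (4%, against 24.5%) in sham (median 0.17). In MI it was 5 (10%, against 15.5%) and 2 (4%, against 16.3%), with a median of 0.04. The 14 became 33 with library totals and 9 under RA numbers 1 to 12, and the MI counts became 2 and 0 without the lung-bearing libraries, 0 and 1 without the thymocyte-bearing ones and 0 and 1 with the marker covariates. Rrp12 (0.69 ± 0.17 SE), which works in subunit maturation and export, Bop1 (0.61 ± 0.10), part of the PeBoW complex, and Sdad1 (0.49 ± 0.17) led the increases, and the Sdad1 call was lost under RA numbers 1 to 12 (0.33, adjusted p = 0.0905). Emg1, a methyltransferase of the small-subunit rRNA (−0.54 ± 0.09), and Rrs1 (−0.37 ± 0.08) were lower. Of 10 snoRNP core proteins, which guide rRNA modification, 4 rose (40%) and 3 fell (30%) in sham, and 0 rose and 2 fell (20%) in MI. Nhp2 was at 0.59 ± 0.11 and Dkc1 at −0.42 ± 0.08 in sham. Of 15 genes of RNA polymerase I and its factors, 2 rose (13.3%) and 3 fell (20%) in sham, and 0 rose and 2 fell (13.3%) in MI. Polr1a, the largest subunit of the enzyme, was at −0.65 ± 0.10 in sham. The shares of all tested genes were 24.9% upward and 24.5% downward in sham, and 15.5% and 16.3% in MI. The 2 lower genes of either list in MI became 0 to 2 under the library omissions and the covariates.

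Among 26 regulators of ribosome synthesis and translation, 5 passed upward and 5 downward in OE sham hearts (19.2% each way, against 24.9% and 24.5% of all tested genes) and 0 and 4 in OE MI hearts (15.4% downward, against 16.3%). The 4 became 4 without the lung-bearing libraries, 0 without the thymocyte-bearing ones and 1 with the marker covariates. Myc, which drives transcription of ribosome genes, had 85, 91, 64 and 60 normalized reads in WT sham hearts and 164, 259, 232 and 123 in OE sham hearts (1.32 ± 0.29 SE, adjusted p = 0.00150), with no overlap, and it rose in WT MI against WT sham as well (1.03 ± 0.29, adjusted p = 0.0461), a call lost without the lung-bearing libraries (1.07, adjusted p = 0.451), with the marker covariates (1.32, 0.218) and under RA numbers 1 to 12 (0.98, 0.155). Mycn (0.90 ± 0.23, lost under RA numbers 1 to 12 at 0.77, adjusted p = 0.0714) and Eif4ebp1 (0.62 ± 0.14), a repressor of cap-dependent translation when not phosphorylated by mTORC1, also passed upward in sham. Maf1, a repressor of RNA polymerase III, was lower by −0.82 ± 0.08 in sham and −0.59 ± 0.08 in MI, where it missed the threshold without the thymocyte-bearing libraries (−0.42, adjusted p = 0.0510). Rps6ka2, an RSK kinase, was at −0.86 ± 0.15 and Eef2k, which inhibits elongation, at −0.66 ± 0.12 in sham. Of 12 cycling cell markers, 12 rose in OE sham and 12 in OE MI hearts (medians 1.85 and 1.64), and in MI 10 did without the lung-bearing libraries, 1 without the thymocyte-bearing ones and 4 with the marker covariates.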

How the data were processed

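PolyA RNA of 16 mouse hearts was analysed. Per the series design text, single 60-base reads were trimmed with cutadapt (reads under 40 bases dropped), subsampled to 23M per library, aligned to mm10 with TopHat 2.0.10, counted over RefSeq genes with HTSeq-count 0.6.1p1 and tested with DESeq2 1.6.3. Whether counting used strand, and how reads with several alignments were treated, is not given in the sources used here. The per-sample columns the authors deposited hold signal, taken to be read counts over a size factor per library, since 100% of the values were whole multiples of 1 step per library (tolerance 0.001). The authors' deposited table also lists, per the file headers, its own log2 fold change, p-value and adjusted p-value for every gene in 4 comparisons.

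All fits were made with limma 3.58.1 (R 4.3.3, trended variance) on log2(value + 1) over the 14298 genes that reached 10 normalized reads in 4 or more libraries. One mean per group and 5 comparisons were fitted, with Benjamini-Hochberg adjustment over all tested genes and a threshold of 0.05. Fold changes are on the log2(value + 1) scale. edgeR 4.0.16 (TMM) and DESeq2 1.42.0 on the recovered reads were alternatives, as were pseudocounts of 0.5 and 5, no filter, other scalings, leaving out each library, a replicate block, marker covariates and RA numbers 1 to 12. Scaling to the ribosomal protein genes and leaving out the lung-bearing or thymocyte-bearing libraries (marker sum above 1000) were chosen after seeing the data. Code was tested on simulated data. Tables and plots used Python 3.11.15, pandas 2.3.3 and matplotlib 3.10.9. The genes and lists were chosen with earlier results of these data known, and no test is made over a list. Named genes were the 4 highest and 4 lowest per comparison, genes called against the majority, paralogs and parents, stalk proteins, Rps6, proteins outside the rule, up to 3 highest and 3 lowest passing genes of each other list, Myc, Eef1a1 and Eef1a2; other genes, such as Rps16 and Rpl13a, are named after their values were seen. The p-values measure the spread between animals. Promoters and start sites are RefSeq, GRCm38.p6 (60 of 80 genes matched), and exon lengths and shared 60-base stretches GENCODE. Values of some single genes are not reported here.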

Additional observations from a re-analysis of the deposited data

Results flagged for a closer look

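Values of 1 library stood apart from the other 3 of its group, by Dixon's test at 95%, in 4 of 88 groups tested, and chance flags about 1 in 20. Rps2 was lowest in WT sham replicate 1, at 12980 normalized reads, with the next library at 14150. Rps13 was highest in WT MI replicate 4, at 2998 normalized reads, with the next at 2903. The ratio of large-subunit to small-subunit sums was lowest in OE MI replicate 1, at 1.65, with the next at 1.71, and that library carries thymocyte markers. Rpl3l as a share of Rpl3l plus Rpl3 per kb was highest in WT sham replicate 2, at 65.0%, with the next at 54.2%. No cause was tested for these values.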

How the results depend on the processing

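The Rpl3l decrease in OE hearts kept its direction and its call in every setting run (−3.38 to −2.97 in sham, −2.69 to −1.74 in MI). The other counts moved with the scaling, the tool and the libraries, and the causes were not tested. In OE against WT sham hearts the 6 genes up became 33 with library totals, 15 with RA numbers 1 to 12 and 10 when scaled to the ribosomal protein genes, and the 13 down became 3 with library totals, 7 with edgeR and 2 with RA numbers 1 to 12. In OE against WT MI hearts the 3 up became 0 with the marker covariates, 6 when scaled to the ribosomal protein genes, 1 without the lung-bearing libraries and 0 without the thymocyte-bearing ones, and the 36 down became 11 with library totals, 21, 6, 1 and 15. In WT MI against WT sham hearts the 4 up became 1 with no filter, 24 with library totals, 10 with TMM, 10 with edgeR, 14 with DESeq2, 1 with the replicate block, 0 with the marker covariates, 0 with RA numbers 1 to 12, 1 when scaled to the ribosomal protein genes, 0 without the lung-bearing and 7 without the thymocyte-bearing libraries, and the 0 down became 2 when scaled to the ribosomal protein genes. Leaving out 1 library at a time gave 4 to 8 up and 8 to 15 down in sham, 1 to 3 up and 29 to 40 down in MI, and 0 to 10 up in WT infarction. Rpl22 in OE sham hearts turned from −0.02 to 0.13 (adjusted p = 0.0394) with library totals. Among single named genes 93 calls were lost and 41 gained over all settings. A further 3015 entries kept their status, and these include genes that passed neither in the main fit nor in the setting. The share of calls that held cannot be read from these counts. Same-numbered replicates had correlations of deviations from −0.34 to 0.27. Differently numbered replicates were not compared, so this range cannot decide whether the numbers pair the hearts. The replicate block gave 6 up and 11 down in sham and 3 and 32 in MI. Depth of 11939093 to 17468914 reads limits the genes near the minimum mean, and reads shared with pseudogenes could not be resolved from these tables.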
